A study of Mus musculus with 2 samples.

Results

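The bone morphogenetic protein (BMP), activin and transforming growth factor beta (TGF-beta) genes of mouse uterus were compared between 2 RNA-seq libraries, 1 labelled Mettl3 ed/ed and 1 labelled Mettl3 f/f. Both came from whole uteri of females mated at 6 to 8 weeks of age and taken on gestational day 4, with the vaginal plug on day 1. Mettl3 encodes the catalytic subunit of the enzyme that writes N6-methyladenosine on RNA. The labels name no Cre driver, do not spell out the allele codes and do not give the number of animals behind a library. Genes were chosen by symbol, from those beginning with Bmp and a number, Bmpr, Smad and a number, Tgfb1 to Tgfb3, Tgfbr, Acvr, Inhb, Gdf and a number, Grem or Fst, and Id1 to Id4. This gave 63 of the 20634 genes in the tables. Of these, 43 reached 1 FPKM (fragments normalised to transcript length and library size) in ed/ed, in f/f or in both, as did 12165 of all genes. They comprised 13 ligands, 12 receptors, 7 Smads, 2 extracellular inhibitors, 4 Id genes and 5 genes whose symbol matched but whose product has another function.

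Ligands of this family are secreted dimers that bring together type I and type II receptor kinases. BMP receptors pass the signal to Smad1, Smad5 and Smad9, whereas TGF-beta and activin receptors pass it to Smad2 and Smad3, and both sets of Smads enter the nucleus with Smad4. Smad6, Smad7 and secreted proteins such as follistatin limit the signal, and the Id genes are common targets of BMP. In the mouse uterus, BMP signalling is needed for embryo attachment and for decidualization, the change of stromal fibroblasts into the cells that surround the implanting embryo.

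Each genotype had 1 library, so no test between genotypes was possible and no spread between animals could be measured. Differences are log2 ratios of ed/ed over f/f after 1 FPKM was added to each value, which understates differences of low genes, and the threshold for a call was 2-fold. The median over all 12165 genes was -0.26 on this scale, an offset between the libraries, and members are also placed against it. Depth was estimated at 17300000 fragments in ed/ed and 18300000 in f/f, from the spacing of low values. Ratios of the FPKM values themselves, with nothing added, are given with 95% exact binomial intervals from estimated fragments, which cover counting error only. The targeted gene Mettl3 was at 10.2 FPKM in the library labelled ed/ed and 10.6 FPKM in that labelled f/f. Its level therefore does not check the labels, on which all directions below rest.

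Among genes that reached 1 FPKM in a library, RNA of 12 of 13 ligand genes was lower in ed/ed than in f/f. That of the Smad and Id genes lay close to or above the median of all genes. Of 13 ligands, 12 had a log2 ratio below 0 and also below the median of all genes. Bmp2, Bmp3 and Bmp5 reached 1 FPKM only in f/f, and Gdf15 only in ed/ed, so the filter itself favoured their directions. With no filter, 15 of 27 ligands lay below the median of all genes, which was then 0, and 7 were listed at 0 in both libraries. Gdf7, Bmp7 and Bmp3 were at least 2-fold lower, and 0 ligands were at least 2-fold higher. Over all genes, 6.22% were at least 2-fold lower and 2.68% at least 2-fold higher, and 70.4% had a log2 ratio below 0. The median log2 ratio was -0.75 over the ligands, -0.38 over the 12 receptors, -0.20 over the 7 Smads and 0.01 over the 4 Id genes. These are differences of -0.49, -0.12, 0.06 and 0.27 from all genes. None of the receptors, Smads, inhibitors or Id genes was 2-fold apart. Summed over the ligands, the level was 41.8 FPKM in ed/ed and 91.7 FPKM in f/f. The receptors summed to 90.7 FPKM in ed/ed and 115 FPKM in f/f, and the Smads to 106 FPKM in ed/ed and 119.9 FPKM in f/f. The Id genes summed to 252 FPKM in ed/ed and 245 FPKM in f/f. Over all 43 genes the median was -0.37 and 27 genes (62.8%) had ratios under the all-gene median. The 3 ligands were the only calls, 3 of 43 genes, where 8.9% of all genes were 2-fold apart in either direction.

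**Figure D1:**
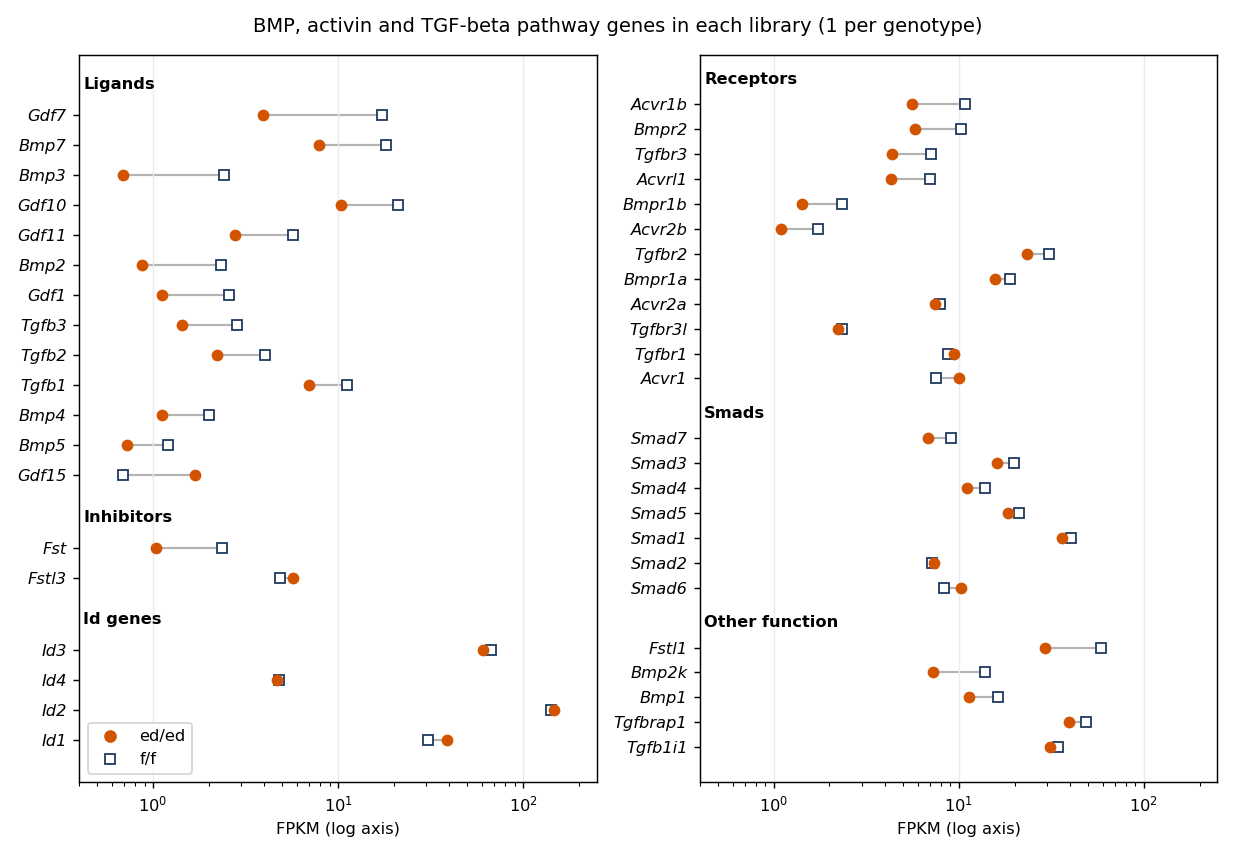
FPKM of each of the 43 genes on a log axis, with filled circles for the ed/ed library and open squares for the f/f library, 1 library each. Within each role, genes run from the lowest log2 ratio at the top to the highest. For 12 of 13 ligands the ed/ed circle lies left of the f/f square, whereas the pairs of the 4 Id genes nearly coincide or cross.

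Upstream sequences are shown for Gdf7, the ligand with the lowest ratio, and for Id2 and Id3, the most abundant of the Id genes, whose levels were close in both libraries. Each is the 250 bases before the annotated start, from RefSeq on GRCm38.p6, read on the strand of the gene. The GENCODE models used here for coordinates begin farther upstream for Id2 (25093799 to 25097140) and Id3 (136143497 to 136145755). The Id2 and Id3 windows thus lie inside those models, and only the Gdf7 window lies outside its model. Capitals mark GGCGCC, a GC-rich element bound by Smad1 and Smad5, or CAGAC, the Smad binding element, which is GTCTG when it lies on the other strand. The Gdf7 window is chr12:8301955-8302204 on the minus strand, the Id2 window chr12:25096093-25096342 on the minus strand, and the Id3 window chr4:136143572-136143821 on the plus strand.
Gdf7: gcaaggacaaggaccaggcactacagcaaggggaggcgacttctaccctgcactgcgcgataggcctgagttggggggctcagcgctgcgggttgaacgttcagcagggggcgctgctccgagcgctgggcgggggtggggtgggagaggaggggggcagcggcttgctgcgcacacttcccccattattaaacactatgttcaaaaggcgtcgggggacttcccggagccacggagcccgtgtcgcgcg
Id2: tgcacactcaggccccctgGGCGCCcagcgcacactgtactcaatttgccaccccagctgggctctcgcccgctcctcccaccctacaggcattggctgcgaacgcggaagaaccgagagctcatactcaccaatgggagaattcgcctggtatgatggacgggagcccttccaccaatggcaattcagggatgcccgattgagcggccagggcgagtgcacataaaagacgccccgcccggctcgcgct
Id3: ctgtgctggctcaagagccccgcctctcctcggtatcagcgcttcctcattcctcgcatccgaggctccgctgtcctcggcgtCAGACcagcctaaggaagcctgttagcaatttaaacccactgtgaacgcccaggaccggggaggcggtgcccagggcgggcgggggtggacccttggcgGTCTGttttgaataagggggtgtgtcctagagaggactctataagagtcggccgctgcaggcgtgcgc

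The Id2 window held 1 copy of GGCGCC, the Id3 window 2 copies of CAGAC, and the Gdf7 window 0 of either. Over the 32851 windows of the RefSeq table, 9.59% held GGCGCC and 42.2% held CAGAC on either strand. Windows were matched for 30 of the 43 genes, some of them with more than 1 window. The counts that follow are of genes with a match in any window, so they are not on the per-window scale of those shares. GGCGCC was in a window of 2 of 3 Id genes (Id2 and Id4) and 1 of 9 ligands (Gdf1), and CAGAC in a window of 1 of 3 Id genes and 5 of 9 ligands. The Gdf1 match to GGCGCC was in a window at chr8:70315525-70315774. The window next to the Gdf1 start used here (70329817), chr8:70329515-70329764, held 0 copies of GGCGCC. The motifs do not overlap each other in the windows printed. A match to these letters describes the sequence and was not tied to the levels.

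Among the ligands, Gdf7 (ENSMUSG00000037660, chromosome 12, positions 8297918 to 8301954, GRCm38, minus strand) stood farthest from all genes. It encodes a growth and differentiation factor of the BMP group, first known from the roof plate of the neural tube. Gdf7 was at 3.95 FPKM in ed/ed and 17.3 FPKM in f/f, about 80 and 371 estimated fragments. The ratio was 0.229, with a counting interval of 0.177 to 0.292. On the log2 scale the difference was -1.88, a 3.69-fold lower level, at percentile 0.567 of all genes counted from the lowest ratio. It was the only ligand at least 2-fold lower under each of the 7 alternative scales that gave every gene a ratio.

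Bmp7 (ENSMUSG00000008999, chromosome 2, positions 172868012 to 172940321, GRCm38, minus strand), a ligand linked in mice to uterine receptivity, was at 7.86 FPKM in ed/ed and 18.3 FPKM in f/f. Its ratio was 0.430, with an interval of 0.386 to 0.480, and its log2 ratio was -1.12. Bmp3, which opposes the bone-forming BMPs, was at 0.691 FPKM in ed/ed and 2.41 FPKM in f/f. The ratio of 0.287 (0.220 to 0.371) was the second lowest of the ligands, but with 1 FPKM added the log2 ratio was -1.01, just past 2-fold. Gdf10, the close relative of Bmp3 and the most abundant ligand in both libraries, was at 10.4 FPKM in ed/ed and 21.2 FPKM in f/f. It lay just inside 2-fold, at -0.96. Neither Bmp7 nor Bmp3 remained past 2-fold when ed/ed was scaled by reference genes, by the upper quartile or by the median ratio, or without the trend with transcript length.

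Bmp2 (ENSMUSG00000027358), which mouse stroma needs for decidualization and which is induced around the implanting embryo, was a low gene at this stage. It was at 0.868 FPKM in ed/ed and 2.32 FPKM in f/f, about 50 and 141 fragments, with a ratio of 0.374 (0.267 to 0.523) and a log2 ratio of -0.83. Bmp4, its closest relative, was at 1.12 and 2.003 FPKM in ed/ed and f/f, and its interval of 0.357 to 0.846 reached past the median ratio of all genes, 0.814. Bmp5 was at 0.724 FPKM in ed/ed and 1.21 FPKM in f/f, with an interval of 0.410 to 0.883 that also held that median, and it shares 1878 exonic bases with an antisense gene model, Gm26903. The 5 BMP-named ligands that reached 1 FPKM were thus all lower in ed/ed, although Bmp2, Bmp3 and Bmp5 passed that level only in f/f. For Bmp4 and Bmp5 a difference from the offset of all genes was not detectable at this depth.

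The TGF-beta ligands moved by similar amounts. Tgfb1, made by many cell types and by immune cells in particular, was at 6.95 FPKM in ed/ed and 11.2 FPKM in f/f, a log2 ratio of -0.62. Tgfb2 was at 2.21 FPKM in ed/ed and 4.01 FPKM in f/f (-0.64), and Tgfb3 at 1.43 FPKM in ed/ed and 2.86 FPKM in f/f (-0.66). All 3 lay within 2-fold and below the median of all genes. Gdf11, a relative of myostatin that acts through Smad2 and Smad3, was at 2.77 FPKM in ed/ed and 5.71 FPKM in f/f, a log2 ratio of -0.83. Gdf1, known from left-right patterning of the embryo, was at 1.12 FPKM in ed/ed and 2.57 FPKM in f/f. All 1349 exonic bases of Gdf1 are shared with Cers1 on the same strand, so reads of these genes cannot be told apart and its value is uncertain.

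Gdf15 was the exception among the 13 ligands that reached 1 FPKM. It encodes a distant member of the family that is induced by cell stress and acts on a receptor outside the Smad pathway. It was at 1.69 FPKM in ed/ed and 0.690 FPKM in f/f, about 38 and 16 fragments, with a ratio of 2.44 and a wide interval of 1.37 to 4.84. On the scale with 1 FPKM added the log2 ratio was 0.67, within 2-fold, and with 0.1 FPKM added it was 1.18.

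Counting intervals come from the same values as the ratios, so they are not separate support for the order of roles. They lay wholly below the median ratio of all genes for 10 of 13 ligands, 6 of 12 receptors, 0 of 7 Smads and 0 of 4 Id genes, against 35.3% of 12089 genes. They lay wholly above it for 1 ligand, 3 receptors, 4 Smads and all 4 Id genes, against 36.7%. These intervals narrow with abundance, so the shares also follow how abundant the genes are. Bmp2 and Bmp3, among the 10 ligands below, reached 1 FPKM only in f/f. Gdf15, the 1 ligand above, did so only in ed/ed, so the filter itself favoured these directions.

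**Figure D2:**
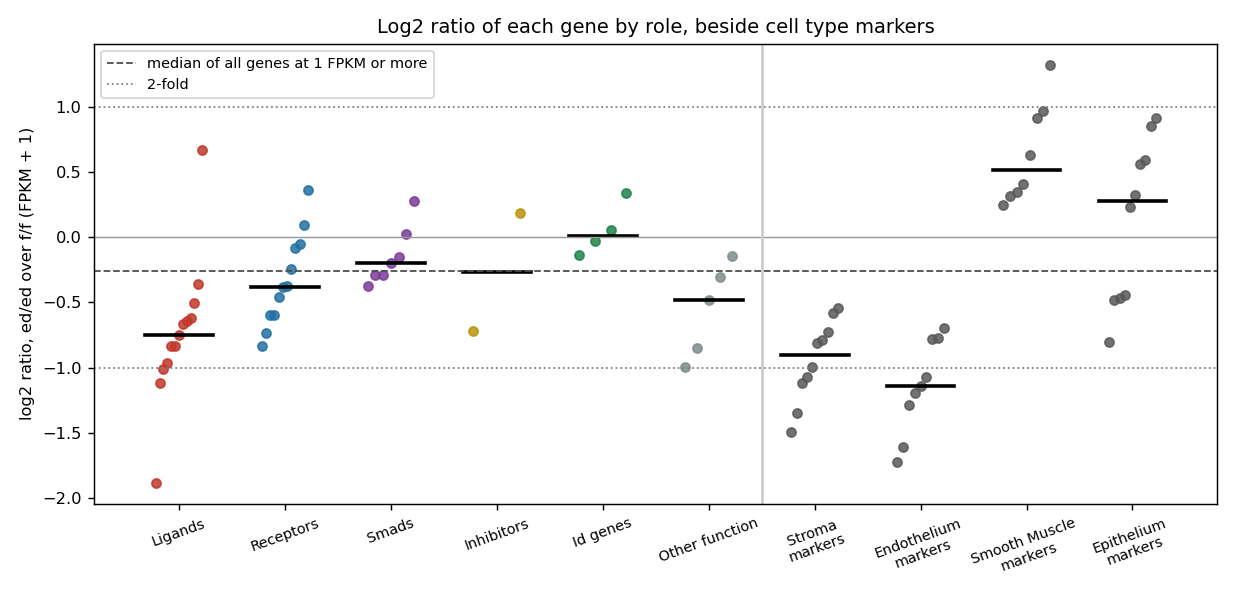
Log2 ratio of ed/ed over f/f, with 1 FPKM added to each value, for the 43 genes by role and, right of the grey line, for 4 lists of cell type markers; each point is a gene and each black bar a median. The dashed line is the median of all genes (-0.26) and dotted lines mark 2-fold. Ligands sit with the stroma and endothelium markers below the dashed line, with Gdf15 above it, while the 4 Id genes sit above it.

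Levels of cell type markers also differed between the libraries. All 10 stroma markers were lower in ed/ed (summed level 629 FPKM, against 1232 FPKM in f/f; median log2 ratio -0.90), with 4 at least 2-fold lower. All 9 expressed endothelium markers were lower (71.1 FPKM against 171 FPKM in f/f; median -1.14), with 6 at least 2-fold lower, and Vwf lay under 1 FPKM in both libraries. With the length trend removed, 1 stroma and 2 endothelium markers were at least 2-fold lower, where 6.22% of all genes were so as deposited and 2.86% with the trend removed. All 8 smooth muscle markers were higher in ed/ed (823 FPKM against 495 FPKM in f/f; median 0.52), as were 6 of 10 epithelium markers (1956 FPKM against 1915 FPKM in f/f; median 0.28). Of 8 gland markers, 5 were expressed (52.5 FPKM against 25.5 FPKM in f/f), and Prss28 and Prss29 were listed at 0 in both. Spink1 made up 36.0 and 15.7 FPKM of these sums in ed/ed and f/f, and Aldh1a1 was lower in ed/ed (-0.46). At least 2-fold higher were 3 gland, 1 smooth muscle and 0 epithelium markers, where 2.68% of all genes were so. With the length trend removed these counts were 3, 3 and 2, where 4.33% of all genes were so. The 3 gland markers were Foxa2, Sox9 and Spink1 on both scales. Foxa2 and Sox9 reached 1 FPKM only in ed/ed, so the filter itself favoured their direction. In whole uterus, fewer cells of a type and less RNA per cell cannot be told apart, and the part of these cell types in the ligand values was not tested. Of the ovary markers, Fshr, Cyp19a1 and Zp3 were listed at 0 in both libraries, and Foxl2, which uterine stroma also expresses, was at 10.7 FPKM in ed/ed and 18.2 FPKM in f/f. Inha of the same list was at 1.17 FPKM in ed/ed and 2.28 FPKM in f/f, and Amh at 0.440 FPKM in ed/ed and listed at 0 in f/f, and the 8 ovary markers summed to 13.0 FPKM in ed/ed and 21.4 FPKM in f/f. Of 6 blastocyst markers, Pou5f1, Nanog and Cdx2 were listed at 0 in both libraries, Elf5 was at 4.74 FPKM in ed/ed and 3.47 FPKM in f/f, Eomes at 0.854 and 1.06 FPKM in ed/ed and f/f, and Sox2 at 0.104 and 0.0488 FPKM in ed/ed and f/f. Macrophage markers summed to 237 FPKM in ed/ed and 116 FPKM in f/f over 7 expressed genes (median log2 ratio 0.34), with 2 at least 2-fold higher. Lyz2 made up 188 and 86.6 FPKM of these sums in ed/ed and f/f, and Csf1r was lower in ed/ed (-0.31). The 5 red blood cell markers summed to 57.6 FPKM in ed/ed and 59.7 FPKM in f/f.

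The receptors were spread from -0.83 to 0.36 on the log2 scale, with 7 of 12 below the median of all genes and 0 called. At the low end was Acvr1b (ENSMUSG00000000532), the activin type I receptor ALK4, at 5.59 FPKM in ed/ed and 10.8 FPKM in f/f, a ratio of 0.520 (0.460 to 0.586). Bmpr2, the type II receptor for BMPs that the mouse uterus needs to carry pregnancy, was at 5.78 FPKM in ed/ed and 10.3 FPKM in f/f, a log2 ratio of -0.74. Acvrl1 (ALK1), the type I receptor of endothelium, was at 4.28 FPKM in ed/ed and 6.996 FPKM in f/f, a log2 ratio of -0.60. The co-receptor of endothelium, Eng, was at 11.8 FPKM in ed/ed and 29.2 FPKM in f/f, and so was further apart than Acvrl1. Tgfbr3 (betaglycan), which presents TGF-beta and inhibin, was at 4.34 FPKM in ed/ed and 7.09 FPKM in f/f, also -0.60.

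At the high end of the receptors was Acvr1 (ENSMUSG00000026836), the BMP type I receptor ALK2, which mouse stroma needs for decidualization. It was at 9.997 FPKM in ed/ed and 7.57 FPKM in f/f, with a ratio of 1.32 (1.16 to 1.504) and a log2 ratio of 0.36 that stayed above 0 under every scale tried. Tgfbr1 (ALK5), the type I receptor for TGF-beta, was at 9.38 FPKM in ed/ed and 8.72 FPKM in f/f. Its interval of 0.979 to 1.18 included equal levels but lay above the median ratio of all genes, 0.814. The partner of Tgfbr1, the type II receptor gene Tgfbr2, was the most abundant receptor at 23.4 FPKM in ed/ed and 30.6 FPKM in f/f (-0.37). Bmpr1a (ALK3), which the uterus needs for embryo attachment in mice, was at 15.8 FPKM in ed/ed and 18.9 FPKM in f/f, and its log2 ratio of -0.25 was 0.01 from the median of all genes. The type I receptors Acvr1 and Acvr1b thus lay at opposite ends of the receptors.

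The remaining receptors were low or close in both libraries. Bmpr1b (ALK6) was at 1.42 FPKM in ed/ed and 2.33 FPKM in f/f, and the activin type II receptor gene Acvr2b at 1.097 and 1.74 FPKM in ed/ed and f/f. Its paralogue Acvr2a was at 7.42 FPKM in ed/ed and 7.89 FPKM in f/f, and shares 446 exonic bases with Orc4 on the opposite strand. Tgfbr3l, a betaglycan-like co-receptor, was at 2.22 FPKM in ed/ed and 2.33 FPKM in f/f, and shares 1530 exonic bases with the overlapping gene model Gm49320. Medians were -0.35 over 6 type I receptors and -0.38 over 4 type II receptors, close to each other.

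The Smads lay within a narrow range, from -0.37 to 0.28. Smad1, the most abundant, was at 36.3 FPKM in ed/ed and 40.4 FPKM in f/f (-0.15), and Smad5, which acts with it behind BMP receptors, at 18.4 FPKM in ed/ed and 21.2 FPKM in f/f (-0.20). Smad3 was at 16.1 FPKM in ed/ed and 19.99 FPKM in f/f (-0.29), and Smad2 at 7.34 FPKM in ed/ed and 7.18 FPKM in f/f (0.03). Smad4, the partner shared by all of these, was at 11.1 FPKM in ed/ed and 13.8 FPKM in f/f (-0.29). Smad1, Smad2 and Smad5 were over the all-gene median, and Smad3 and Smad4 each 0.03 under it.

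The inhibitory Smads went opposite ways on the deposited scale. Smad6, which mainly limits BMP signals and is itself a BMP target, was at 10.3 FPKM in ed/ed and 8.35 FPKM in f/f, with a ratio of 1.24 (1.08 to 1.41). Smad7, which limits TGF-beta and BMP signals, was at 6.78 FPKM in ed/ed and 9.07 FPKM in f/f, with a ratio of 0.747 (0.663 to 0.842). The interval of Smad7 held the median ratio of all genes, 0.814, so a difference from that offset was not detectable at this depth. That of Smad6 lay above it. The log2 ratios of Smad6 and Smad7, 0.28 and -0.37, kept these signs under each scale tried, although Smad7 was at -0.07 without the length trend. Their levels in f/f were close to each other, and those in ed/ed further apart.

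The Id genes encode helix-loop-helix proteins that block basic helix-loop-helix transcription factors. Id2 was the most abundant of the 43 genes, at 148 FPKM in ed/ed and 142 FPKM in f/f, with a ratio of 1.04 (0.995 to 1.08). Id1 (ENSMUSG00000042745) was at 38.9 FPKM in ed/ed and 30.6 FPKM in f/f, a ratio of 1.27 (1.13 to 1.43), and had the highest log2 ratio of the Id genes, 0.34. Id3 was at 61.0 FPKM in ed/ed and 67.04 FPKM in f/f (-0.13), and Id4 at 4.67 FPKM in ed/ed and 4.79 FPKM in f/f (-0.03). All 4 had ratios over the all-gene median, by 0.12 to 0.60, and within 2-fold, and the signs of Id3 and Id4 changed with the scale.

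Of the extracellular inhibitors, follistatin (Fst), which binds activin and is needed in the mouse uterus for decidualization, was at 1.03 FPKM in ed/ed and 2.35 FPKM in f/f. Its ratio was 0.440 (0.305 to 0.626) and its log2 ratio -0.72. The related gene Fstl3 was at 5.70 FPKM in ed/ed and 4.88 FPKM in f/f. Its interval of 0.931 to 1.46 included equal levels but lay above the median ratio of all genes, 0.814. Fstl3 shares 1157 exonic bases with Prss57 on the opposite strand, which was listed at 0 in ed/ed and at 0.0628 FPKM in f/f. Grem1, a secreted BMP antagonist, lay under 1 FPKM, at 0.0839 FPKM in ed/ed and 0.196 FPKM in f/f.

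The remaining 5 genes carry family names without acting as ligands, receptors or Smads. Fstl1, a secreted glycoprotein of mesenchymal cells, was at 29.2 FPKM in ed/ed and 59.04 FPKM in f/f, just inside 2-fold at -0.99. Bmp2k, a kinase, was at 7.28 FPKM in ed/ed and 13.9 FPKM in f/f (-0.85) and shares 1185 exonic bases with Paqr3 on the opposite strand. Bmp1, a protease that processes collagen and releases BMPs from chordin, was at 11.3 FPKM in ed/ed and 16.2 FPKM in f/f (-0.48). Tgfbrap1, a receptor-associated protein, was at 39.2 FPKM in ed/ed and 48.6 FPKM in f/f (-0.30), and the focal adhesion gene Tgfb1i1 at 31.3 FPKM in ed/ed and 34.6 FPKM in f/f (-0.14). All 5 had log2 ratios below 0 as deposited, as did 70.4% of all genes, and Fstl1 and Bmp2k differed most. Counting intervals of Fstl1, Bmp2k and Bmp1 fell wholly under the all-gene median ratio, 0.814. The interval of Tgfbrap1 held that ratio, and the interval of Tgfb1i1 was wholly over it. For Tgfbrap1 and Tgfb1i1 the sign of the log2 ratio changed with the scale.

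The other 20 genes stayed under 1 FPKM in both libraries and did not enter the comparisons of the 43 genes. Among them, 9 were listed at 0 in both, namely Bmp8a, Bmp8b, Bmp10, Gdf2, Gdf6, Inhbc, Inhbe, Acvr1c and Fstl5. The activin subunit gene Inhba was at 0.281 FPKM in ed/ed and 0.448 FPKM in f/f, and Inhbb at 0.502 FPKM in ed/ed and 0.134 FPKM in f/f. Bmp6 was at 0.609 FPKM in ed/ed and listed at 0 in f/f. The oocyte genes Gdf9 and Bmp15 were at 0.711 and 0.0402 FPKM in ed/ed and at 0.745 and 0.188 FPKM in f/f. Gdf3, Gdf5, Smad9, Fstl4 and Grem1 ranged up to 0.451 FPKM in ed/ed and 0.359 FPKM in f/f. Among the ligands under 1 FPKM, the listed value was higher in ed/ed for Bmp6, Inhbb, Gdf3 and Gdf5. It was lower in ed/ed for Inhba, Gdf9 and Bmp15.

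Ratios over all genes fell with transcript length, from a median of -0.01 in the shortest of 10 equal groups to -0.43 in the longest, and Spearman's rho was -0.22 over 12161 genes. Genes are not independent replicates, so rho is given as a description. The median length was 3555 nt for the ligands, 5518 nt for the receptors and 4278 nt for the Smads, against 1624 nt for the Id genes and 3089 nt for all genes. With that trend removed, which also centres all genes near 0, the medians were -0.54 for the ligands, -0.04 for the receptors, 0.14 for the Smads and 0.25 for the Id genes. Gdf7, with 1423 nt, was then the only gene of the 43 at least 2-fold lower, at -1.77, and 0 were at least 2-fold higher, where these shares were 2.86% and 4.33% over all genes, and 12 of 13 ligands remained below 0. The receptors as a group were then near all genes, with 6 of 12 below 0.

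**Figure D3:**
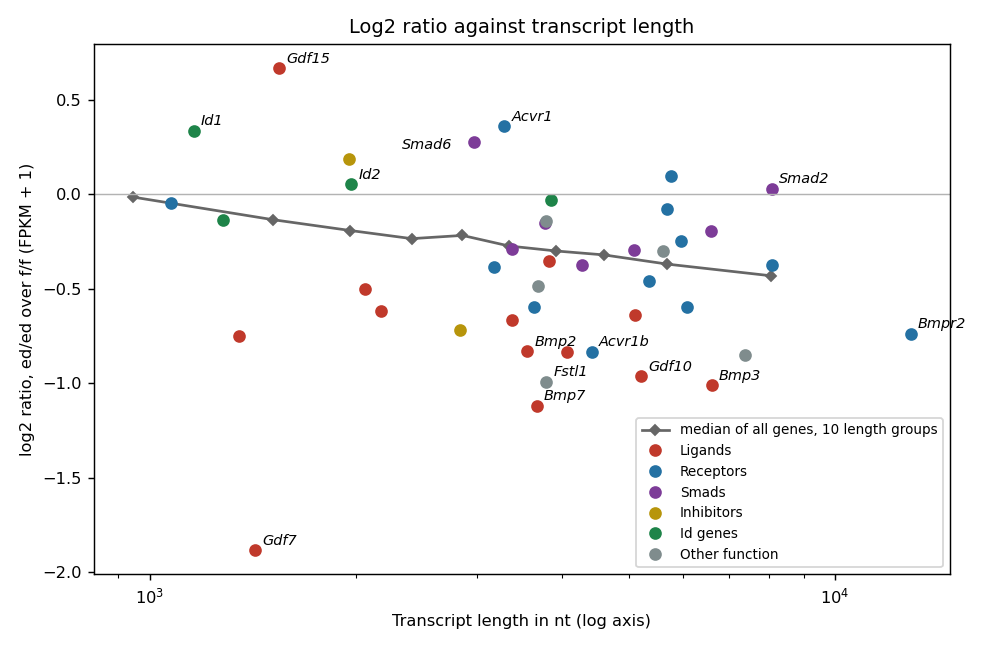
Log2 ratio of ed/ed over f/f, with 1 FPKM added, against the length of the longest coding transcript in nt on a log axis; circles are the 43 genes coloured by role and the grey line joins the medians of all genes in 10 equal groups by length. The grey line runs from -0.01 to -0.43, and 12 of 13 ligands lie below it, with Gdf7 farthest at -1.88.

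The order of the role medians was kept under the other scales, pseudocounts and the filter at 5 FPKM, but not with no filter, when the 14 ligands under 1 FPKM entered and the medians were -0.18 for ligands and -0.37 for receptors. Relative to all genes, the ligand median was -0.52 with ed/ed scaled to the sum of f/f, -0.56 by the upper quartile, -0.59 by the median ratio and -0.60 by reference genes. Under these 4 scalings the Smad median was 0.07 to 0.08 and the Id median 0.27 to 0.28 above all genes, and the same number of ligands, 12 of 13, lay below the median of all genes. With 5 FPKM added, which mutes genes as low as most ligands, the ligand median was -0.15 relative to all genes, and 11 of 13 lay below.

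**Figure D4:**
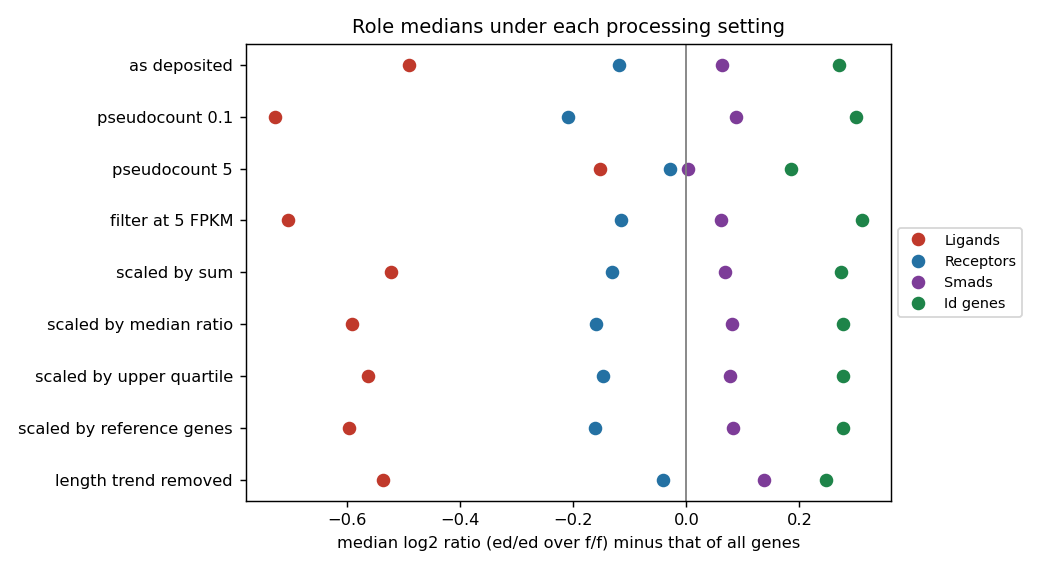
Median log2 ratio of ed/ed over f/f for the ligands, receptors, Smads and Id genes, minus the median of all genes, as deposited and under 8 alternative settings. The setting with no filter is not plotted. The ligand median is the lowest and the Id median the highest in each setting plotted, and the ligand median is nearest to all genes (-0.15) with 5 FPKM added.

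Other genes of the pathway were read from 3 lists. Of 15 expressed extracellular inhibitors, latency proteins and co-receptors, 3 were at least 2-fold lower in ed/ed and 0 were higher, where the shares over all genes were 6.22% and 2.68%. With the length trend removed only Thbs1 remained 2-fold lower. Their median log2 ratio was -0.43. The 3 were Thbs1, the co-receptor gene Eng, and Lrrc32. Thbs1, which activates latent TGF-beta, was at 14.6 FPKM in ed/ed and 46.5 FPKM in f/f. Lrrc32, which holds latent TGF-beta on cells, was at 0.472 FPKM in ed/ed and 2.005 FPKM in f/f. It reached 1 FPKM only in f/f, so the filter itself favoured its direction. The most abundant of the list were Nbl1, a secreted BMP antagonist, at 62.5 FPKM in ed/ed and 92.03 FPKM in f/f, and Bambi, a decoy receptor, at 82.2 FPKM in ed/ed and 77.3 FPKM in f/f.

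Of 16 expressed intracellular regulators of Smads, 0 were 2-fold apart, where 8.9% of all genes were so, and the median was -0.30, close to all genes. With the length trend removed, 1 was at least 2-fold higher, where 4.33% of all genes were so. It was Pmepa1, at 7.36 FPKM in ed/ed and 3.80 FPKM in f/f, with a log2 ratio of 0.80 as deposited and 1.12 without the trend. Fkbp1a, which keeps type I receptors inactive, was the most abundant at 204 FPKM in ed/ed and 247 FPKM in f/f, followed by Tgif1, a Smad corepressor, at 63.3 FPKM in ed/ed and 39.3 FPKM in f/f. Of 13 expressed target genes, 1 was at least 2-fold higher and 2 lower, where the shares over all genes were 2.68% and 6.22%. Their median log2 ratio was 0.03. The transcription factor gene Bhlhe40 was higher, at 25.9 FPKM in ed/ed and 10.97 FPKM in f/f. The matrix genes Fn1 and Col1a1 were lower, at 19.4 and 35.6 FPKM in ed/ed and at 59.4 and 78.6 FPKM in f/f, and Col1a1 is also a stroma marker. Msx1, a homeobox gene of uterine receptivity and the most abundant target, was at 486 FPKM in ed/ed and 443 FPKM in f/f, and Tgfbi, which encodes a matrix protein, was at 74.3 FPKM in ed/ed and 46.1 FPKM in f/f. With the length trend removed, 1 target was at least 2-fold lower, Fn1, where 2.86% of all genes were so. The 2 that were then higher were Bhlhe40 and the cell cycle inhibitor gene Cdkn2b, where 4.33% of all genes were so. Cdkn2b was at 1.02 FPKM in ed/ed and 0.0477 FPKM in f/f. It reached 1 FPKM only in ed/ed, so the filter itself favoured its direction.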

How the data were processed

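Whole-uterus RNA was extracted with TRIzol and made into libraries with an Illumina TruSeq RNA kit, per the labels' protocols. The authors deposited 1 value per gene and library, taken here as FPKM because Cufflinks 2.2.1 writes that unit; the header names none. HISAT2 2.2.1, Cufflinks 2.2.1 and the builds mm9 and mm10 are named without roles in the submitters' processing notes. For annotation, strand setting and filters nothing is given in the sources used here, and overlapping genes are named as uncertain. FPKM divides by length and library total, so a few abundant genes or unequal capture of long transcripts move many values together.

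Members and lists were chosen with earlier results of these data known. All members that reached 1 FPKM in a library are named, with genes of the 3 pathway lists at 2-fold or of highest mean level; cell type markers are summarised by list. Log2 ratios used a pseudocount of 1 FPKM over 12165 genes. Coordinates, lengths and overlaps came from GENCODE M21 (GRCm38), matched by identifier for 20571 of 20634 genes. Fragments were estimated from the spacing of low values in genes with 1 transcript over 1000 nt, with the effective length taken as 250 nt shorter (353 genes in ed/ed, 326 in f/f). For genes with several transcripts the longest coding transcript was used, so fragment numbers are approximate. The trend with length was removed by lowess (fraction 0.3, statsmodels 0.14.6). The computation, not the calls in these libraries, was tested on simulated data. Alternatives were pseudocounts, filters, a 1.5-fold rule, 4 scalings, the length trend and leaving out the 5 genes of other function. The receptor classes were assigned after the values were seen. Hfe2 and Ctgf, entries of the pathway lists, were not matched and are not analysed here. The values of 1 member under 1 FPKM in both libraries are not reported here.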

Additional observations from a re-analysis of the deposited data

How the results depend on the processing

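As deposited, 3 of 43 genes, all ligands, were at least 2-fold lower in ed/ed, 0 were higher, the median log2 ratio was -0.37 and 27 had ratios under the all-gene median. With a pseudocount of 0.1 FPKM, 9 genes were lower (7 of them ligands), 1 was higher (Gdf15) and the median was -0.52, where 11.0% of all genes were lower and 4.02% higher. With a pseudocount of 5 FPKM, 1 was lower, a ligand, and the median was -0.24 (all genes 1.70% lower). Under the 1.5-fold rule, 17 genes were lower, of which 10 were ligands, and 1 was higher, where 23.4% of all genes were lower and 7.04% higher. Without a filter on low values the median over all 63 genes was -0.17 and 42 lay below that of all genes, which was then 0; with a filter at 5 FPKM 30 genes were left and 17 lay below it. Scaling by the median ratio, by upper quartiles or by reference genes left 1 gene lower, Gdf7. Over all genes, 3.15%, 3.81% and 3.06% were then lower, in that order. In the same order the medians were -0.2098, -0.2622 and -0.1958, and ed/ed was multiplied by 1.23, 1.16 and 1.24. Scaling by the sum left 2 lower, where 4.99% of all genes were lower. Removing the length trend left 1 lower, Gdf7, where 2.86% of all genes were lower, and a median of -0.0675. The median of the Smads, -0.20 as deposited, stayed negative with scaling by the sum, at -0.1135. It turned positive under 4 settings, at 0.0859 (median ratio), 0.0053 (upper quartile), 0.1003 (reference genes) and 0.136 (length trend removed). Leaving out the 5 genes of other function left the counts of 2-fold calls at 3 and 0. No gene called at 2-fold changed direction under these alternatives. No paired analysis was possible because each genotype has 1 library. With 1 library a genotype, none could be left out, and the spread between animals is unknown. At this depth 1 FPKM of a 2000 nt transcript is about 30 fragments in ed/ed and 32 in f/f, which limits the low ligands most.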
